A study of Mus musculus with 6 samples.

Results

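The 10 genes described here encode proteins of the late, secondary granules of neutrophils and the S100 proteins that fill the cytosol of the same cells. They are Ltf, Camp, Ngp, Lcn2, S100a8, S100a9, Fcnb, Pglyrp1, Cd177 and Itgb2l. They were taken by name, as all probe sets other than controls whose platform annotation gives exactly 1 of these symbols. This gave 10 of the 18193 genes named in this way and 12 of 45037 probe sets, 3 for Itgb2l and 1 for each of the other genes. Values are log2 signals from 6 Affymetrix arrays, 3 with PBS and 3 with mD1R. The RNA came from C57BL/6J mouse bone marrow cells with the c-Kit+Sca-1+Lin- phenotype, called KSL cells, which hold blood stem cells and early progenitors. In both groups these cells spent 7 days in serum-free medium with 5 mouse cytokines (m5GF) on HUVECs, endothelial cells from human umbilical vein, and KSL cells were then sorted once more for RNA. The groups differed in the agent added, PBS or mD1R. The name mD1R is not explained in the labels. The study used it for an engineered soluble form of the mouse Notch ligand Delta-like 1, whose receptor-binding part carries an added motif for attachment to endothelial cells. The labels call the replicates biological and do not say how many mice each drew on.

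Neutrophils make their granules in waves. Primary granule genes such as Mpo are transcribed in promyelocytes, and secondary granule genes such as Ltf, Camp and Ngp come on later, in myelocytes and metamyelocytes, under C/EBP transcription factors together with PU.1, an ETS factor encoded by Spi1. S100a8 and S100a9 form the calcium- and zinc-binding complex calprotectin, one of the most abundant proteins of mature neutrophils, and their mRNAs are also made in monocytes. The KSL gate is meant to leave out cells that carry mature lineage antigens. In bulk RNA, fewer cells of a type and less RNA per cell cannot be told apart.

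The upstream sequences are shown first because the members differed unevenly between arrays and 5 of them stand for that range: Fcnb and Pglyrp1, lower on every mD1R array, Ltf, far lower on some of them, and Lcn2 and S100a8, which differed least. Each line holds 200 bases, from 250 to 51 bases before the annotated start, 5′ to 3′ on the gene's strand, from RefSeq (GRCm38.p6, all 10 members matched). Capitals mark the letters TTNNGCAA (C/EBP core), GAGGAA (PU.1 core) or GGAAGT (ETS core) on either strand. The PU.1 and ETS letters can overlap, as they do in S100a8.

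Fcnb, chr2:28084929-28085128, minus strand: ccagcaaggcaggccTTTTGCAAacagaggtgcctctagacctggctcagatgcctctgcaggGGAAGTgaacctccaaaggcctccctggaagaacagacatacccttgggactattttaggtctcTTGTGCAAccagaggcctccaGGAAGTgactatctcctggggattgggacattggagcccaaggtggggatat
Pglyrp1, chr7:18884440-18884639, plus strand: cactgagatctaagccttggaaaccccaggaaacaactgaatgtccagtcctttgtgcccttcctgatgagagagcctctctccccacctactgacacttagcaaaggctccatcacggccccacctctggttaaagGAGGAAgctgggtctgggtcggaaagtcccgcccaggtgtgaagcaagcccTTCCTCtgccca
Ltf, chr9:111019042-111019241, plus strand: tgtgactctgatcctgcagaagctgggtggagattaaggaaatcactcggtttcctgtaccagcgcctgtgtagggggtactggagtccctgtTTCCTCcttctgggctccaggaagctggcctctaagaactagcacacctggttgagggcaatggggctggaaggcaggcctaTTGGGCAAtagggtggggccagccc
Lcn2, chr2:32387790-32387989, minus strand: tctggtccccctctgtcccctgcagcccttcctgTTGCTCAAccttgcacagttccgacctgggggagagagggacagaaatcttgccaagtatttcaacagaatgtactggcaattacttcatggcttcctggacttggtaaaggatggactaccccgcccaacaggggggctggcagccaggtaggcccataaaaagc
S100a8, chr3:90668821-90669020, plus strand: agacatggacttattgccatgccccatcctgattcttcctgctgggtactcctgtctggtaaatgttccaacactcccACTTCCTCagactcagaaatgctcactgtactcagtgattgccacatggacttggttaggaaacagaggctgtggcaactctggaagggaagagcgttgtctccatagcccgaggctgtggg

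Of the 10 member windows, 5 held TTNNGCAA (Ltf, Ngp, Lcn2, S100a9 and, in 2 places, Fcnb), against 8.11% of 32841 RefSeq windows of the same length. GAGGAA was in 4 (Ltf, S100a8, Pglyrp1 and Cd177), against 18.8%, and GGAAGT in 5 (S100a8, S100a9, Fcnb, Cd177 and Itgb2l), against 14.6%. AGATAA, searched as the core of GATA factors, was in 0, against 8.42%. Of the members, Camp alone held none of the 3 marked motifs in this window. Matching letters are a description and do not show binding, and the motifs were chosen with the results known. In the same annotation S100a8 and S100a9 lie on chromosome 3 with 0 genes between them, Ltf, Camp and Ngp all lie on chromosome 9, Lcn2 and Fcnb on chromosome 2, Pglyrp1 and Cd177 on chromosome 7 and Itgb2l on chromosome 16.

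On these arrays the members ranged from bright and even with PBS to widely scattered with mD1R. The SD of a member's log2 signal lay between 0.15 and 0.57 over the PBS arrays (median 0.27) and between 1.16 and 4.11 over the mD1R arrays (median 2.87), where the median over all 27022 probe sets kept for testing was 0.27 and 0.37. On mD1R replicate 1 all 10 members were below every PBS array, on mD1R replicate 2 9 of 10 were, and on mD1R replicate 3 4 of 10 were, while 3 were above every PBS array. The 4 of 10 is near the share of all tested probe sets below every PBS array on mD1R replicate 3, 32.4%. The shares for replicate 1 or 2 alone, and for replicate 3 above every PBS array, were not counted. Over the 10 genes the median distance from the PBS mean was -6.59 (log2) on mD1R replicate 1, -3.79 on mD1R replicate 2 and -0.07 on mD1R replicate 3. Both mD1R replicates 1 and 2 were below all PBS arrays for 9 of 10 members and for 26.2% of all tested probe sets. In 9 of 10 members mD1R replicate 1 had the lowest and mD1R replicate 2 the next lowest of the 6 values, an order that 9.74% of all tested probe sets showed. The 3 mD1R arrays thus spread out, with replicates 1 and 3 at the ends. The mean z score of the 10 members was -1.74, -0.49 and 0.46 on mD1R replicates 1, 2 and 3, so replicate 1 lay farther from replicate 2 than replicate 3 did. Changes are given below with all arrays and without replicate 3 or replicate 1. Both were singled out from these same genes' values, so leaving out replicate 3 enlarges the changes by construction, leaving out replicate 1 shrinks them, and neither set of values is a result of its own.

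**Figure D1:**
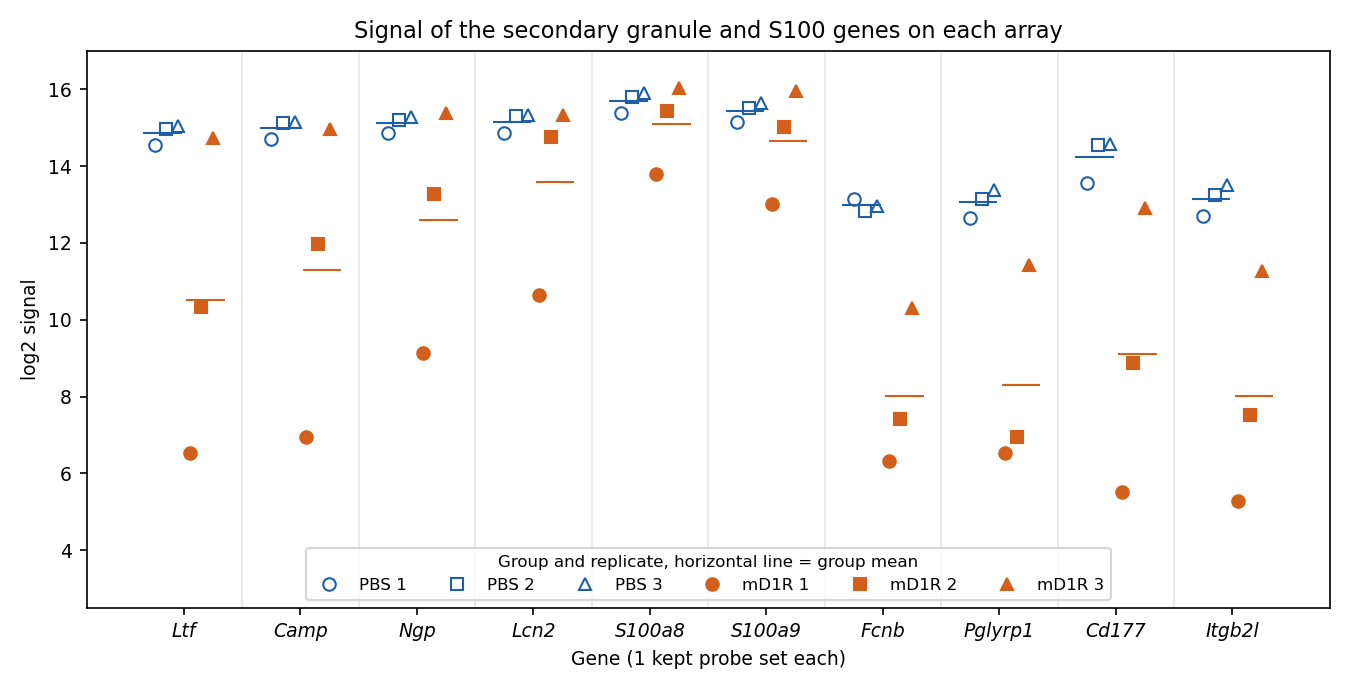
Log2 signal (vertical axis) of the 10 genes (horizontal axis) on each of the 6 arrays, with open blue symbols for PBS, filled orange symbols for mD1R and a horizontal line at each group mean. The PBS arrays lie close together for each gene, mD1R replicate 1 is lowest throughout, and mD1R replicate 3 lies among or above the PBS arrays for Ltf, Camp, Ngp, Lcn2, S100a8 and S100a9 but below them for Fcnb, Pglyrp1, Cd177 and Itgb2l.

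Fcnb, Pglyrp1 and Itgb2l fell with mD1R. They were the 3 of 10 tested member probe sets that passed an adjusted p of 0.05 (limma, Benjamini-Hochberg over 27022 probe sets), and 0 rose. Over all probe sets 6.5% passed as lower and 6.13% as higher. The groups did not overlap for 4 members, these and Cd177, all lower with mD1R, against 18.6% of all tested probe sets lower and 17.3% higher without overlap. An unadjusted p under 0.05 was reached by 5 members, all lower, and by 15.4% of all probe sets as lower. Without mD1R replicate 3 the members past the threshold numbered 7, all lower, against 11.2% of all probe sets passing as lower and 9.34% as higher. That array was chosen for the members' own values on it, so this count is conditional on the choice. With array weights they numbered 6, against 12.6% and 11.5%. Without mD1R replicate 1 only Fcnb passed, against 4.09% of all probe sets as lower and 3.95% as higher. With mD1R replicate 2 or a PBS replicate left out 0 members passed and 4 had an unadjusted p under 0.05 in limma, while of 27022 probe sets 0 to 1301 passed and 5853 to 7243 had an unadjusted p under 0.05.

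Fcnb encodes ficolin B, a lectin that binds sugars on microbes and is stored in neutrophil granules. Its log2 signals were 13.14, 12.84 and 12.96 on PBS replicates 1, 2 and 3, and 6.32, 7.42 and 10.30 on mD1R replicates 1, 2 and 3. Every mD1R array was below every PBS array, including replicate 3, which was 6.43-fold below the PBS mean on the linear scale. The mean fell by 4.97 ± 0.85 (log2, limma's SE, n = 3 per group, adjusted p = 0.0149), and by 6.11 ± 0.32 without mD1R replicate 3 (adjusted p = 0.000424). Without mD1R replicate 1 it was -4.12 (adjusted p = 0.0272). Fcnb passed in 12 of the 16 other settings tried, and not without mD1R replicate 2 (adjusted p = 0.0629) or without a PBS replicate (0.0525 to 0.0690).

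Pglyrp1 encodes a peptidoglycan recognition protein that is released from granules and acts on bacteria. Signals were 12.65, 13.15 and 13.39 with PBS and 6.54, 6.95 and 11.41 with mD1R. Replicates 1 and 2 of mD1R were almost equally low here, 91.9-fold and 69.0-fold below the PBS mean, whereas replicate 3 was 3.14-fold below it. The signals on replicates 1 and 2 lay near the medians of those arrays (6.24 and 6.16). Dim signals are noisy, so these folds and their likeness are imprecise. The change was -4.76 ± 1.13 (adjusted p = 0.0328), and -6.32 ± 0.26 without replicate 3 (adjusted p = 0.000367). It passed in 9 of the 16 other settings, and missed the threshold under an untrended variance (adjusted p = 0.0577), a robust one (0.0512), and with any array other than mD1R replicate 3 left out (-3.88, adjusted p = 0.0756, without mD1R replicate 1).

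Itgb2l encodes an integrin beta 2-like protein of the neutrophil surface, a relative of the beta chain that pairs with CD11b. Its bright probe set read 12.70, 13.25 and 13.50 with PBS and 5.27, 7.52 and 11.28 with mD1R, with no overlap between the groups. It fell by 5.13 ± 1.26 (adjusted p = 0.0367) and by 6.76 ± 0.59 without mD1R replicate 3 (adjusted p = 0.00075). It too passed in 9 of 16 other settings, and missed the threshold under an untrended variance (adjusted p = 0.0627), a robust one (0.0564), and with any array other than mD1R replicate 3 left out (-3.75, adjusted p = 0.0565, without mD1R replicate 1). The other 2 Itgb2l probe sets were dim, with group means between 3.10 and 4.10, lay under the filter at a mean log2 signal of 5.27 and were not tested. Their means differed by 0.92 and 0.89 in the opposite direction, with overlapping groups, so these probe sets neither bear out nor contradict the bright one. At that brightness a signal cannot be told from background, since detection calls were not used here.

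Cd177, a membrane-anchored glycoprotein of the neutrophil surface and of secondary granules, had signals of 13.57, 14.55 and 14.57 with PBS. With mD1R they were 5.51, 8.88 and 12.90, below all PBS arrays on each array. This was the largest mean difference of the 10 members, -5.13 ± 1.54, but the spread among the mD1R arrays was large and it did not pass (adjusted p = 0.0652). Without mD1R replicate 3 it was -7.04 ± 0.86 and passed (adjusted p = 0.00209), and without mD1R replicate 1 it was -3.34 (adjusted p = 0.0899).

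Ltf, Camp and Ngp were lower on mD1R replicates 1 and 2 and near PBS levels on replicate 3. They do not stand for all secondary granule genes, since Lcn2, given below, was close to PBS on replicate 2 as well. Ltf, which encodes the iron-binding protein lactoferrin, read 14.54, 14.97 and 15.05 with PBS and 6.52, 10.32 and 14.74 with mD1R. Relative to the PBS mean it was 324-fold lower on replicate 1 and 23.2-fold lower on replicate 2, but within the PBS range on replicate 3, so the groups overlap. The mean difference of -4.33 ± 1.69 did not pass (adjusted p = 0.132).

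Camp encodes the precursor of the antimicrobial peptide cathelicidin. It had signals of 14.72, 15.13 and 15.16 with PBS and 6.96, 11.97 and 14.98 with mD1R, the pattern of Ltf with a smaller difference on replicate 2. The difference was -3.70 ± 1.66 (adjusted p = 0.181). Ngp, whose product is a cathelicidin-related granule protein, read 14.86, 15.21 and 15.27 with PBS and 9.13, 13.26 and 15.39 with mD1R. On replicate 3 it was above every PBS array, and its difference of -2.52 ± 1.31 did not pass (adjusted p = 0.242). Replicate 3 was singled out from these genes' own values, so the passes without it are conditional on that choice. Without mD1R replicate 3 the changes were -6.44 ± 0.93 for Ltf (adjusted p = 0.00374), -5.54 ± 1.21 for Camp (0.0177) and -3.92 ± 1.0 for Ngp (0.0314). Without mD1R replicate 1 none passed, with -2.33 for Ltf (adjusted p = 0.221), -1.53 for Camp (0.241) and -0.79 for Ngp (0.397).

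Lcn2 and the S100 genes differed least. Lcn2 encodes lipocalin-2, which starves bacteria of iron by binding their siderophores, and it read 14.85, 15.29 and 15.33 with PBS and 10.65, 14.76 and 15.33 with mD1R. Replicate 1 of mD1R alone was clearly below the PBS arrays, by 22.8-fold against their mean, and replicate 2 was 1.32-fold below it. The difference was -1.58 ± 1.06 (adjusted p = 0.362). S100a8 read 15.38, 15.80 and 15.90 with PBS and 13.80, 15.44 and 16.03 with mD1R. S100a9, its partner in calprotectin, read 15.13, 15.51 and 15.64 with PBS and 13.003, 15.02 and 15.96 with mD1R. Both were lowest on mD1R replicate 1 (3.72-fold and 5.37-fold below the PBS mean) and highest of all 6 arrays on mD1R replicate 3.

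The mean difference was -0.60 ± 0.51 for S100a8 and -0.77 ± 0.65 for S100a9 (adjusted p = 0.470 for each). Neither passed without mD1R replicate 3 (-1.07 ± 0.45, adjusted p = 0.141, and -1.41 ± 0.53, adjusted p = 0.104), nor did Lcn2 (-2.45 ± 1.0, adjusted p = 0.129). Without mD1R replicate 1 the Lcn2 difference was -0.11 (adjusted p = 0.791), and the sign turned, to 0.042 for S100a8 and 0.065 for S100a9. The S100a8 probe set gave the highest signal of all probe sets on the PBS arrays and on mD1R replicate 3, so it lies at the top of the measured range. Its probe set is of a type (_s_at) that can match more than 1 transcript.

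The members thus differed among themselves on the less affected arrays. On mD1R replicate 2 the distance from the PBS mean ran from -6.11 for Pglyrp1 to -0.26 for S100a8, and on replicate 3 from -2.69 for Fcnb to 0.53 for S100a9. The genes below all PBS arrays on replicate 3 (Fcnb, Pglyrp1, Cd177 and Itgb2l) were also the 4 that were lowest relative to PBS on replicate 2. A probe set on replicate 3 below all PBS arrays was common over the whole array, at 32.4% of those tested. Of these 4 genes, Fcnb held TTNNGCAA upstream, as did Ltf, Ngp, Lcn2 and S100a9 among the others. Pglyrp1 and Cd177 held GAGGAA, as did Ltf and S100a8. Fcnb, Cd177 and Itgb2l held GGAAGT, as did S100a8 and S100a9. Whether the upstream letters go with these groups was not tested. Whether the changes differ between genes was not tested.

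**Figure D2:**
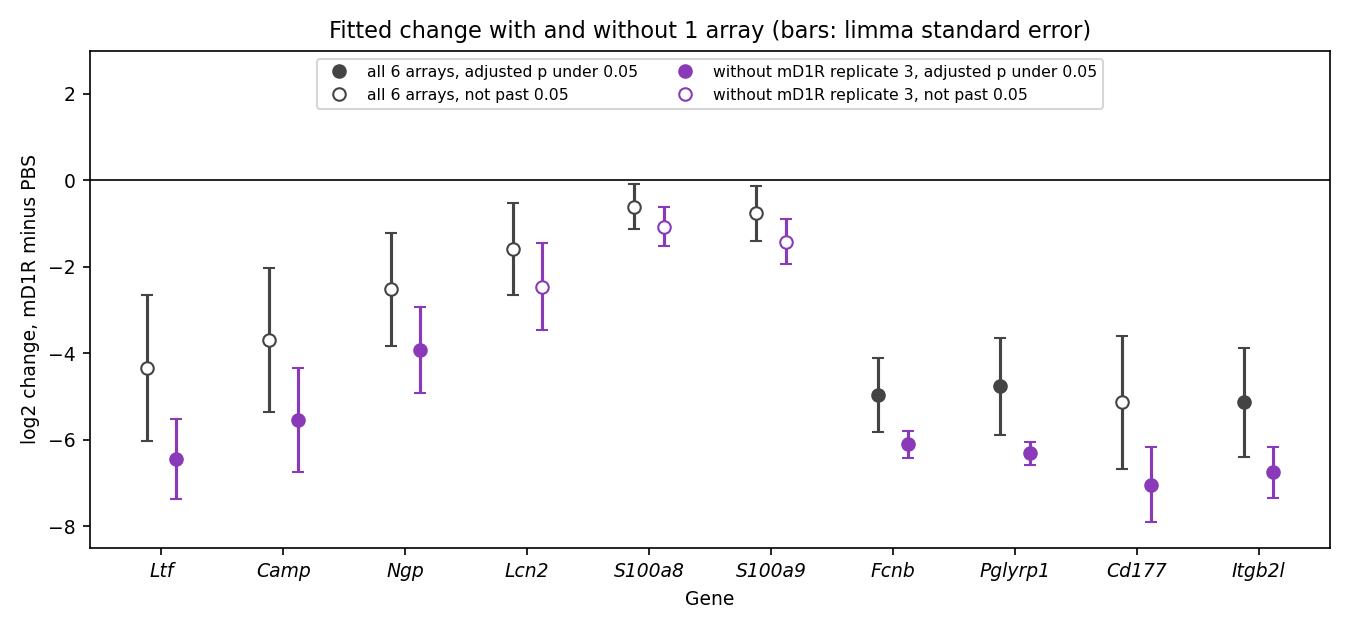
Fitted log2 change, mD1R minus PBS (vertical axis), for each gene (horizontal axis) with all 6 arrays (grey) and without mD1R replicate 3 (purple), with bars for limma's standard error and filled points where the adjusted p was under 0.05. With all arrays 3 genes pass, and without replicate 3 a total of 7 do, all except Lcn2, S100a8 and S100a9. Replicate 3 was singled out from these genes' own values, so leaving it out enlarges the changes by construction.

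The arrays also fall into 2 sets that the labels do not mention. The signal of BioB, a hybridisation control, set against the other controls (BioC, BioD and cre), lay between -3.09 and -2.99 (log2) on PBS replicate 1 and mD1R replicates 1 and 2, called set 1, and between -5.56 and -5.50 on PBS replicates 2 and 3 and mD1R replicate 3, called set 2. The arrays on which all or most members were lowest are thus the mD1R arrays of set 1, and Fcnb, Pglyrp1, Cd177 and Itgb2l were below all PBS arrays on the mD1R array of set 2 as well. Within set 1 all 10 members were lower with mD1R, by -6.37 to -0.76 (median -5.58). Within set 2 6 of 10 were, with differences from -2.60 to 0.39 (median -0.22). The medians over all tested probe sets were -0.11 and 0.07.

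Fcnb differed by -6.27 in set 1 and -2.60 in set 2, Itgb2l by -6.31 and -2.09, Pglyrp1 by -5.90 and -1.86, and Cd177 by -6.37 and -1.66. These 4 were lower in both sets. Ltf (-6.12 and -0.28) and Camp (-5.25 and -0.17) were close to even in set 2, and Ngp (-3.67 and 0.15), Lcn2 (-2.14 and 0.02), S100a8 (-0.76 and 0.18) and S100a9 (-1.12 and 0.39) were lower in set 1 and not lower in set 2. Each set holds a single array of 1 group, so these are values without a test. With the set as a block, Fcnb, Pglyrp1 and Itgb2l passed (adjusted p = 0.0157, 0.0240 and 0.0331). PBS replicate 1 was the lowest PBS array for 9 of 10 members, with a median difference of -0.47 from the mean of PBS replicates 2 and 3 over all 10. The share of all probe sets with that order was not counted. Over all tested probe sets PBS replicate 1 also differed most from the other PBS arrays. The SD of the log2 difference was 0.67 and 0.69 from PBS replicates 2 and 3, against 0.50 between these. The part of the set in these results was not tested beyond the block.

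**Figure D3:**
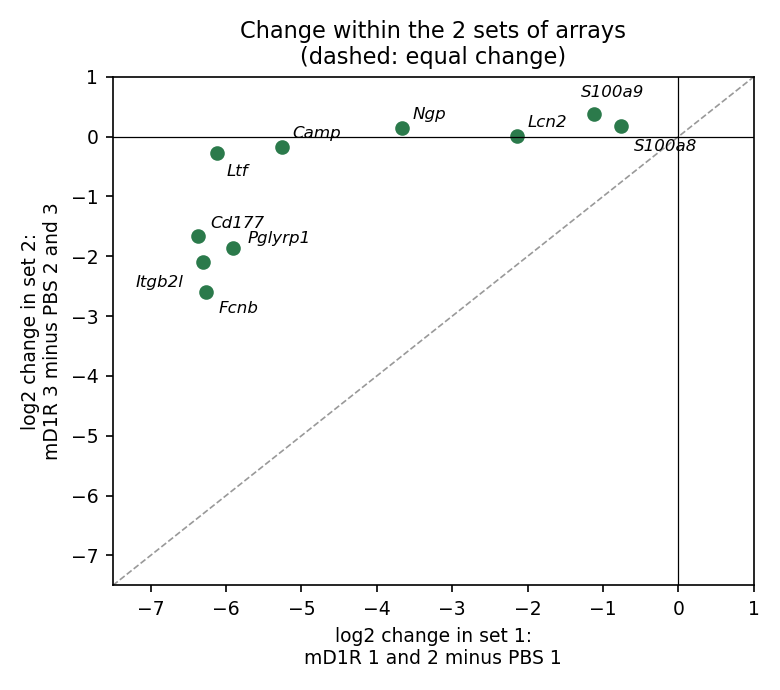
Log2 change of each gene in set 1 (horizontal axis, mean of mD1R replicates 1 and 2 minus PBS replicate 1) against set 2 (vertical axis, mD1R replicate 3 minus the mean of PBS replicates 2 and 3), with a dashed line at equal change. All 10 points lie above the line, with Fcnb, Itgb2l, Pglyrp1 and Cd177 lower in both sets and the other 6 genes near 0 in set 2.

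The same arrays were compared for marker genes of the gate and of other cells. Beside the counts below, 7.09% of all genes tested fell and 8.49% rose. Kit read 9.97, 8.85 and 9.21 with PBS and 11.37, 11.13 and 9.58 with mD1R (difference 1.35 ± 0.49, adjusted p = 0.109). Ly6a, which encodes Sca-1, and Ly6g had no probe set with a single symbol and were not analysed here. Of 13 mast cell and basophil markers 12 were tested and 10 rose, and their summed linear signal was 14529 to 23232 on the PBS arrays and 67700 to 100237 on the mD1R arrays, with the highest value on mD1R replicate 3. Of 13 monocyte and macrophage markers 11 were tested and 5 rose, with sums of 36474 to 43896 and 78200 to 136297. Of 12 lymphoid markers 9 were tested, 6 fell and 1 rose. Their sums were 5520 to 10875 and 6955 to 19036, and Rag1 was the only marker listed at 0, on mD1R replicate 1. The sum over the 10 members themselves was 222929 to 318115 with PBS, and 25091, 121403 and 288509 on mD1R replicates 1, 2 and 3. The list medians over the PBS mean on mD1R replicates 1, 2 and 3 were 2.08, 2.53 and 2.67 for mast cell and basophil markers, 1.93, 2.17 and 0.89 for monocyte and macrophage markers, and -2.93, -2.20 and -1.72 for lymphoid markers. On replicate 3, 6 of the 10 members lay within or above the PBS range and 4 below it. The mast cell list was not uniform: the IgE receptor gene Fcer1a was highest on replicate 3 (12.15, 12.56 and 13.96 on replicates 1, 2 and 3), while the chymase gene Cma1 (13.29, 13.40 and 11.32) and Mcpt1, Mcpt2 and Mcpt4 were lower there than on the other mD1R arrays. Hdc was the 1 tested mast cell and basophil marker with a negative change (-1.34, adjusted p = 0.150 in limma). It read 12.15, 12.59 and 12.54 with PBS and 10.15, 10.58 and 12.54 with mD1R, a pattern like that of the members. Ccr2 was the 1 such monocyte and macrophage marker (-1.37, adjusted p = 0.128). Among lymphoid markers Il7r, an interleukin receptor gene, rose (10.62 to 11.64 with PBS, and 14.13, 13.08 and 12.43 with mD1R). It was the brightest tested lymphoid marker on every array. The lymphoid sums therefore weigh Il7r most and do not show the fall of the other genes. Of 6 megakaryocyte and platelet markers tested 2 rose, with sums of 8162 to 20371 with PBS and 35832 to 55604 with mD1R. Of 4 erythroid markers 1 fell, Slc4a1, the red cell anion exchanger gene (-5.72, adjusted p = 0.0399), with sums of 903 to 3617 and 426 to 846. Of 4 endothelial markers 1 rose, with sums of 746 to 976 and 1246 to 2710. That gene is Pecam1, which is counted again below as a binding partner of CD177. The part of other cell types in the result was not tested.

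Among 24 other genes of late granules and mature neutrophils, 3 fell and 0 rose, with a median log2 change of -1.56 against 0.09 over all 12320 genes tested, of which 7.09% fell and 8.49% rose. Ltb4r1, the leukotriene B4 receptor gene, read 11.90, 12.26 and 12.30 with PBS and 9.86, 10.75 and 11.25 with mD1R (-1.53 ± 0.34, adjusted p = 0.0270). Mmp9, the gelatinase of tertiary granules, read 13.62, 14.28 and 14.43 against 7.25, 9.30 and 12.63 (-4.38 ± 1.13, adjusted p = 0.0426), and a second probe set gave -4.88. Asprv1, an aspartic protease gene, read 10.42, 12.76 and 12.98 against 4.37, 6.41 and 9.80 (-5.20 ± 1.27, adjusted p = 0.0363). A dimmer probe set of Anxa1, the annexin A1 gene, also passed as lower (-2.09, adjusted p = 0.0126), and its brightest did not (-0.63, adjusted p = 0.141). For Ltb4r1, Mmp9 and Asprv1 the groups did not overlap and replicate 3 was the highest mD1R array, as it was for the members. Per array, the list's median distance from the PBS mean was -3.49, -1.13 and -0.15 on mD1R replicates 1, 2 and 3. The count that fell was 13 without mD1R replicate 3, where 11.6% of all genes fell and 12.7% rose, and 14 with array weights, where 13.2% fell and 15.5% rose. It was 1 when mD1R replicate 1 was left out, and 0 when mD1R replicate 2 or a PBS replicate was, where 5 to 10 had an unadjusted p under 0.05 in limma.

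Not every late neutrophil gene followed. Mmp8, the collagenase of secondary granules, read 14.15, 14.57 and 14.64 with PBS and 14.48, 14.72 and 14.78 with mD1R (0.21 ± 0.20, adjusted p = 0.533). Chil3, a chitinase-like protein gene of neutrophils and macrophages, read 14.84, 15.30 and 15.30 against 14.76, 15.43 and 15.14 (-0.03 ± 0.23), and Cybb, the oxidase subunit gene, 14.20, 14.86 and 14.95 against 13.76, 15.03 and 14.37 (-0.28 ± 0.35). On mD1R replicate 1, where Ltf was 324-fold below its PBS mean, the Mmp8 and Chil3 signals lay within or just below their PBS range. Mmp8, Chil3 and Cybb were chosen after their values were seen.

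Primary granule genes, which precede these in neutrophil maturation, included Mpo, Elane and Prtn3 with low values on the same arrays. Mpo, the peroxidase gene, read 14.68, 14.35 and 14.36 with PBS and 7.39, 9.77 and 13.93 with mD1R (-4.10 ± 1.36, adjusted p = 0.0876). Elane, the elastase gene, read 13.12, 12.16 and 12.21 against 4.12, 8.20 and 12.17 (-4.33 ± 1.67, adjusted p = 0.127), and Prtn3, the proteinase 3 gene, 14.23, 14.08 and 14.17 against 8.22, 11.10 and 13.52 (-3.21 ± 1.10, adjusted p = 0.0938). Ctsg, the cathepsin G gene, read 14.13, 13.55 and 13.77 against 13.24, 12.84 and 14.58 (-0.27 ± 0.42), with overlapping groups. Of 7 genes tested on this list, 1 fell and 1 rose, with a median of -3.21. Over all genes tested 7.09% fell and 8.49% rose. Mpo, Elane, Prtn3 and Ctsg were not among those that passed. The list also holds Ms4a3 (-3.61, adjusted p = 0.0550) and the inhibitor genes Serpinb1a and Cst7, and all counts of primary granule genes include them. The protease inhibitor gene Serpinb1a fell by 1.89 ± 0.46 (adjusted p = 0.0350) and Cst7, the cystatin F gene, rose by 0.91 ± 0.22 (adjusted p = 0.0328). Without mD1R replicate 3, 5 fell and 1 rose. Without mD1R replicate 1 or PBS replicate 1, 0 fell and 1 rose, and without mD1R replicate 2, PBS replicate 2 or PBS replicate 3 none passed in limma, where 4 or 5 had an unadjusted p under 0.05.

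**Figure D4:**
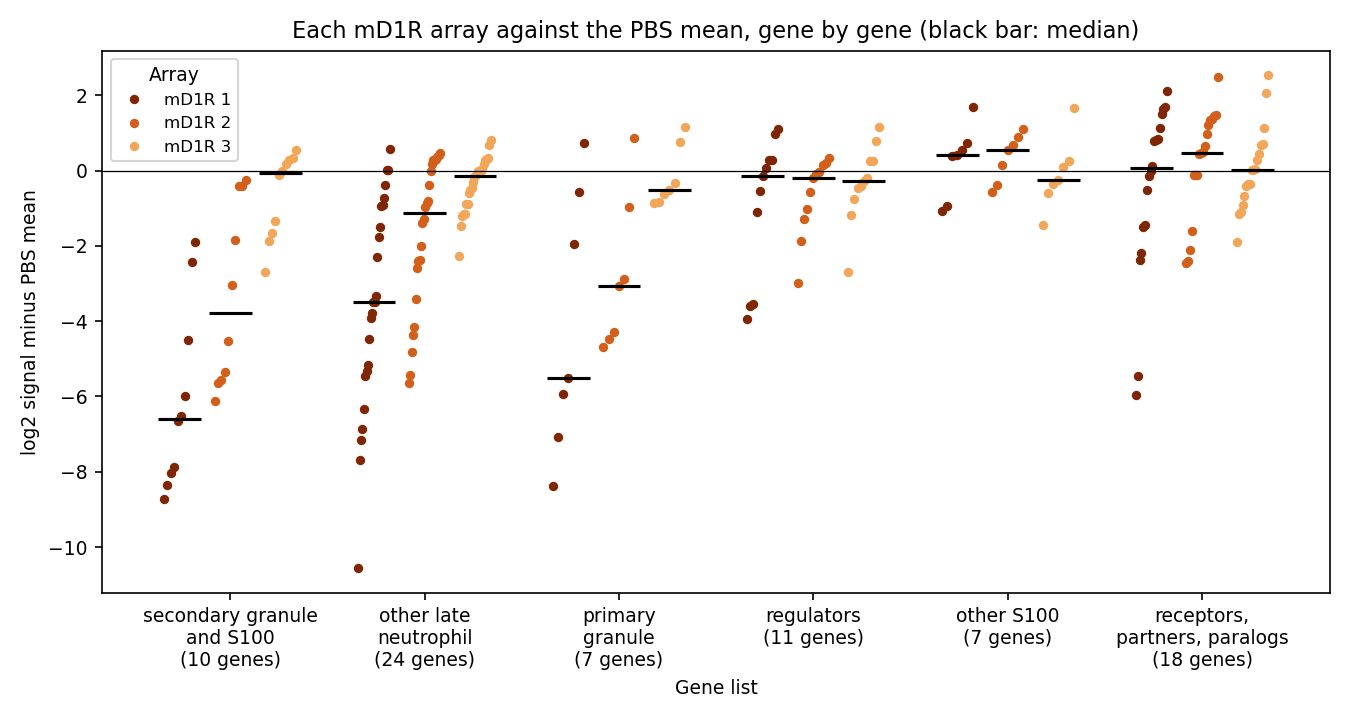
Distance of each gene's log2 signal from its PBS mean (vertical axis) on mD1R replicates 1, 2 and 3 (dark to light) for the 10 secondary granule and S100 genes and 5 other gene lists (horizontal axis), with a black bar at the median. The medians of the granule and late neutrophil lists lie far below 0 on replicate 1 and near 0 on replicate 3, while those of the regulators, other S100 genes and receptors stay between -0.28 and 0.54 on every array.

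Of 11 regulators of granulocyte genes tested, 2 fell and 0 rose (median -0.32), against 7.09% and 8.49% of all genes tested. Cebpd, a C/EBP factor gene active in maturing myeloid cells, read 12.65, 13.11 and 13.23 with PBS and 9.39, 11.14 and 11.81 with mD1R (-2.22 ± 0.55, adjusted p = 0.0368). Lef1, a factor of the Wnt pathway, read 8.81, 7.68 and 7.87 against 4.56, 6.83 and 5.42 (-2.52 ± 0.59, adjusted p = 0.0317). Lef1 was dimmer than the members with PBS and, unlike them, lower on mD1R replicate 3 than on replicate 2. Gfi1, a repressor that granulocyte development needs, read 11.43, 10.55 and 10.65 against 6.92, 7.89 and 10.12 (-2.57 ± 0.72, adjusted p = 0.0536). That pattern, low on mD1R replicates 1 and 2 and near PBS on replicate 3, resembles the members' pattern. Spi1 differed by -0.84 ± 0.28 (adjusted p = 0.0855) and passed with the spike-in set as a block (-0.61, adjusted p = 0.0419). Gfi1 passed after centring of the arrays (adjusted p = 0.0449) and without mD1R replicate 3 (0.00132), which was singled out from the members' values. It missed the threshold with the spike-in set as a block (0.0848) and with any other array left out (0.106 to 0.164). It also missed under an untrended variance (0.0840) and a robust one (0.0657). Cebpa differed by 0.74 ± 0.33 (adjusted p = 0.176). Other probe sets of listed genes also passed: 2 of 5 further Runx1 probe sets as higher (1.02, adjusted p = 0.0237, and 0.89, 0.0414), 1 of 3 of Stat3 as lower (-1.42, 0.0265) and 1 of Cebpd as lower (-1.23, 0.0257). The brightest probe sets of Runx1 (0.63) and Stat3 (-0.32), which stand for these genes in the counts, did not pass. Cebpe, the C/EBP factor most tied to secondary granules, had no probe set with a single symbol and was not analysed here. Of these genes 4 fell without mD1R replicate 3, 1 fell when mD1R replicate 1 or 2 was left out, and 0 did when a PBS replicate was, in limma, where 3 to 6 had an unadjusted p under 0.05.

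The rest of the S100 family did not pass the test. Of 7 other S100 genes tested, 0 passed in limma and 1 had an unadjusted p under 0.05 (median change 0.20). The smallest p was that of S100a13, which read 11.56, 11.81 and 12.03 with PBS and 10.86, 11.41 and 11.20 with mD1R (-0.65 ± 0.21, adjusted p = 0.0821). S100a10, the annexin A2 partner, differed by 0.50 ± 0.25, S100a5 by 1.41 ± 0.63 and S100a1 by 0.47 ± 0.33, and none of these passed. S100a1 passed as higher without mD1R replicate 3 (0.83, adjusted p = 0.0480).

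Receptors, partners and paralogs of the members' products moved both ways, with 4 of 18 higher and 1 lower, against 8.49% and 7.09% of all genes tested. Bsg, which encodes basigin, a receptor for S100A9, read 11.07, 11.13 and 10.99 with PBS and 11.86, 12.54 and 12.18 with mD1R (1.13 ± 0.20, adjusted p = 0.0165). P2rx7, the ATP receptor gene through which cathelicidin can act, rose by 1.28 ± 0.28 (adjusted p = 0.0275; 2 other probe sets gave 1.17 and 0.71 and did not pass), Pecam1, a binding partner of CD177, by 1.41 ± 0.31 (0.0279), and the integrin gene Itgb1 by 1.02 ± 0.19 (0.0182; 2 other probe sets gave 1.38, which passed, and 0.25). Itgal, the alpha chain of LFA-1, fell by 1.63 ± 0.30 (adjusted p = 0.0166). Itgb2, the paralog of Itgb2l, read 13.70, 14.14 and 14.27 with PBS and 13.88, 14.68 and 14.05 with mD1R, a difference of 0.17 ± 0.26. Itgam, the gene of the myeloid antigen CD11b, read 11.66, 12.24 and 12.31 with PBS and 11.56, 11.94 and 11.72 with mD1R (-0.33 ± 0.22, adjusted p = 0.367). On mD1R replicate 1 Itgb2 was within its PBS range and Itgam just below its own, while Itgb2l was 236-fold below its PBS mean. Genes that passed numbered 10 without mD1R replicate 3, 4 without mD1R replicate 1, 1 without PBS replicate 1, and 0 in limma without mD1R replicate 2, PBS replicate 2 or PBS replicate 3, where 6 or 7 had an unadjusted p under 0.05.

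The genes with the most similar pattern were sought among 12310 others, by the Pearson correlation over the 6 arrays with the mean z score of the 10 members. The arrays share their groups and their sets, so r is a description, and 624 genes had r above 0.9. The 6 closest were Ifitm6 (0.999), Ifnlr1 (0.998), Trpm2 (0.997), Olfm4 (0.996), Ccr2 (0.996) and Tmcc1 (0.996). Ccr2 is on the monocyte and macrophage list above. Ifitm6 read 14.42, 15.15 and 15.23 with PBS and 8.93, 12.43 and 14.61 with mD1R. Olfm4, itself a secondary granule gene and on the late neutrophil list above, read 12.11, 12.67 and 12.86 against 1.99, 8.17 and 11.38 (-5.36 ± 1.96, adjusted p = 0.113), with mD1R replicate 1 near the bottom of the signal range.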

How the data were processed

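RNA of 6 sorted KSL samples, 3 with PBS and 3 with mD1R, was measured on Affymetrix arrays, and groups and replicate numbers come from the sample titles. The authors deposited log2 signals for 45101 probe sets, 64 of them controls. Per the submitters' processing notes they come from MAS5 (no version given). The 2% trimmed mean of the linear signal was 500.0 on each array, so arrays were scaled one by one, and 239 to 422 values per array were listed at log2 0. Because MAS5 corrects with mismatch probes, dim values are noisy and large falls from bright to dim are imprecise. Of the probe sets other than controls, 34945 carried 1 gene symbol in the platform annotation, 932 several and 9160 none.

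The comparison used limma 3.58.1 (R 4.3.3): lmFit and eBayes with trended variance on the unchanged log2 values, with no block and two-sided p-values. Probe sets whose mean was under the 40th percentile (5.27) were not tested, 27022 remained, and p-values were adjusted over these by the Benjamini-Hochberg method at 0.05. Of the 12 member probe sets 10 were kept. List genes were represented by their brightest kept probe set. Folds are powers of 2 of log2 differences. The fit was tested on simulated data. Precision is limited by having 3 arrays per group (median SE of a log2 change 0.31), and an exact permutation test could not go below p = 0.1.

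The members, lists and motifs were chosen with earlier results of these data known. The genes named from each list were, by rule, all that passed, or the 4 of smallest p where none did, plus a fixed set (Mpo, Elane, Prtn3, Ctsg, Cebpe, Cebpa, Gfi1, Spi1, Itgb2 and Itgam), and the 6 genes most alike in pattern. Ms4a3, Anxa1, Runx1, Stat3, Mmp8, Chil3, Cybb and some cell type markers were named outside this rule. Alternatives covered scaling, a pseudocount of 32, the filter, how variance was modelled, weighting of arrays, a block for replicate number or for spike-in set, and leaving out each array. The platform's annotation could be old.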

Additional observations from a re-analysis of the deposited data

How the results depend on the processing

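All 10 tested members were lower with mD1R in every setting except without mD1R replicate 1, where S100a8 and S100a9 turned. When 1 array was left out, the log2 change of S100a8 ran from -1.07 to 0.042 and that of S100a9 from -1.41 to 0.065. Ctsg ran from -0.78 to 0.090 and Itgb2 from -0.070 to 0.33, both turning without mD1R replicate 2. The cause was not tested. Over the settings that leave out 1 array, which leave 5 arrays, the count past the adjusted p of 0.05 ran from 0 to 7 for the members (3 with all arrays), 0 to 5554 for all probe sets (3413; 0 without PBS replicate 3, where 5853 had an unadjusted p under 0.05 in limma), 0 to 13 for the other late neutrophil genes (3), 0 to 6 for primary granule genes (2), 0 to 4 for regulators (2), 0 to 1 for the other S100 genes (0) and 0 to 10 for receptors, partners and paralogs (5). With array weights these counts were 6 members, 6508 probe sets, 14 late neutrophil, 6 primary granule, 4 regulator and 2 other S100 genes. With no variance trend they were 1 member, 2213 probe sets, 0 late neutrophil and 0 primary granule genes (10 and 6 at an unadjusted p under 0.05) and 1 regulator. With robust variance 1 member, 3372 probe sets and 1 late neutrophil gene passed, and with no filter 2878 probe sets and 1 other S100 gene. By an unadjusted p under 0.05 and at least 2-fold, 5 members passed, as did 4491 of the 27022 tested probe sets. Counts under the other scalings, the pseudocount, the 60th percentile filter and the spike-in set as a block were within 1.5 times those above. Counting probe sets with several symbols added no member probe set.

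The replicate numbers were checked for pairing. Deviations from the group means correlated at 0.31, 0.03 and 0.13 between same-numbered arrays, so the numbers were not taken to pair the samples. With the replicate number as a block 4619 probe sets passed, 8.53% of those tested as lower, and 4 members did (Cd177 besides the 3 above, adjusted p = 0.0197), with 14 late neutrophil genes, 5 primary granule genes, 4 regulators and 1 other S100 gene. Gfi1 (adjusted p = 0.0396) and Spi1 (0.0304) passed with that block. Dim signals limit the size of the largest falls, since low signals cannot be told from background here.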
